A study of Mus musculus with 2 samples.

Results

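Transcripts of glutamate and GABA receptor subunits were followed across cell types that had switched on Atf3 after a mild brain injury in mice. The set held 34 genes of the 31053 in the count matrices: 4 AMPA receptor, 5 kainate receptor, 7 NMDA receptor, 1 delta receptor and 6 metabotropic glutamate receptor genes, with 9 GABA-A and 2 GABA-B receptor genes. Members were listed by family and not by a measured value, but with earlier results of these data known. Other subunits of these families were not analysed here. With at least 20 unique molecular identifiers (UMIs, each standing for 1 captured transcript) in neurons as the limit, 31 of the 34 were given levels. Grm2 and Gabrg1 had 18 UMIs each and Grin3b had 6.

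Glutamate is the main excitatory transmitter of the cortex. AMPA, kainate and NMDA receptors are cation channels assembled from subunits, and the subunits of each channel set its calcium entry, its kinetics and where it sits on the cell, while the metabotropic receptors act through G proteins. GABA, released by interneurons, opens chloride channels made of alpha, beta, gamma and delta subunits (GABA-A) and acts through a G protein coupled pair of subunits (GABA-B).

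The nuclei came from Atf3-CreER::Sun1-sfGFP mice, heterozygous for both alleles and older than 7 weeks, which received a closed-skull mild traumatic brain injury (mTBI). Cre was expressed from the Atf3 locus, so tamoxifen at 4 and 5 days post injury (dpi) placed GFP on the nuclear envelope of whichever cells used Atf3 at that time, neurons or not. GFP+ nuclei of the ipsilateral cortex were sorted at 7 dpi into 2 libraries, 1 of male and 1 of female mice, each a pool of 4 animals. No uninjured, sham or GFP- library was analysed here, so every comparison is between kinds of captured nuclei and none is between injured and uninjured cortex.

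Of 8171 nuclei with a label deposited by the authors, 2580 were in the neuron subset, and 9 neuron labels with at least 50 nuclei held 2499 (1344 male, 1155 female). These were 6 excitatory labels, L2/3 IT CTX-1, L2/3 IT CTX-2, L4/5 IT, L6 IT (intratelencephalic neurons of those layers), L5 PT (pyramidal tract neurons) and L6 CT (corticothalamic neurons), and 3 interneuron labels, Pvalb, Sst and Vip. Nuclei labelled Unknown, Astro (astrocytes) and Micro-PVM (microglia and perivascular macrophages) were added, the last as a guide to the background of free RNA. The median neuron held 3591 UMIs in the male library but 8501.5 in the female, so sex, pool and depth cannot be told apart. Summed UMIs per label ran from 123248 (male Vip) to 3457660 (female L5 PT) among neurons, and levels in small sums are the least precise. Xist UMIs numbered 19 (male) and 35218 (female), although the labels name both libraries as male in their sex field.

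The labels were checked against class markers, and matched them only in part. Summed over 5 interneuron markers, the 3 interneuron labels had 687 to 4312 CPM (UMIs of a gene per 1e+06 UMIs of the sum) and the 6 excitatory labels 14.7 to 265 CPM. Over 5 excitatory markers the excitatory labels had 204 to 422 CPM and the interneuron labels 31.6 to 52.7. The 265 CPM was L6 IT, above its 204 CPM of excitatory markers (male 377 against 231, female 153 against 178). Still, its 204 CPM lay above the excitatory marker sum of every interneuron label, and its 265 CPM below the interneuron marker sum of each. The 2 sums cover different genes and do not rank against each other. L6 IT was thus mixed by its markers, and it is called excitatory by its name. Pvalb and Sst transcripts were at or near 0 in the labels named for them (at most 1.58 and 3.77 CPM), while Vip transcripts reached 146 and 72.2 CPM in Vip. L2/3 IT CTX-2 and L6 IT were shallow, with medians of 1506 to 2708 UMIs, and held more microglial marker transcripts (1138 and 1144 CPM over 7 markers) than the other 7 neuron labels (506 to 758 CPM). The part of this in their receptor levels was not tested.

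**Figure D1:**
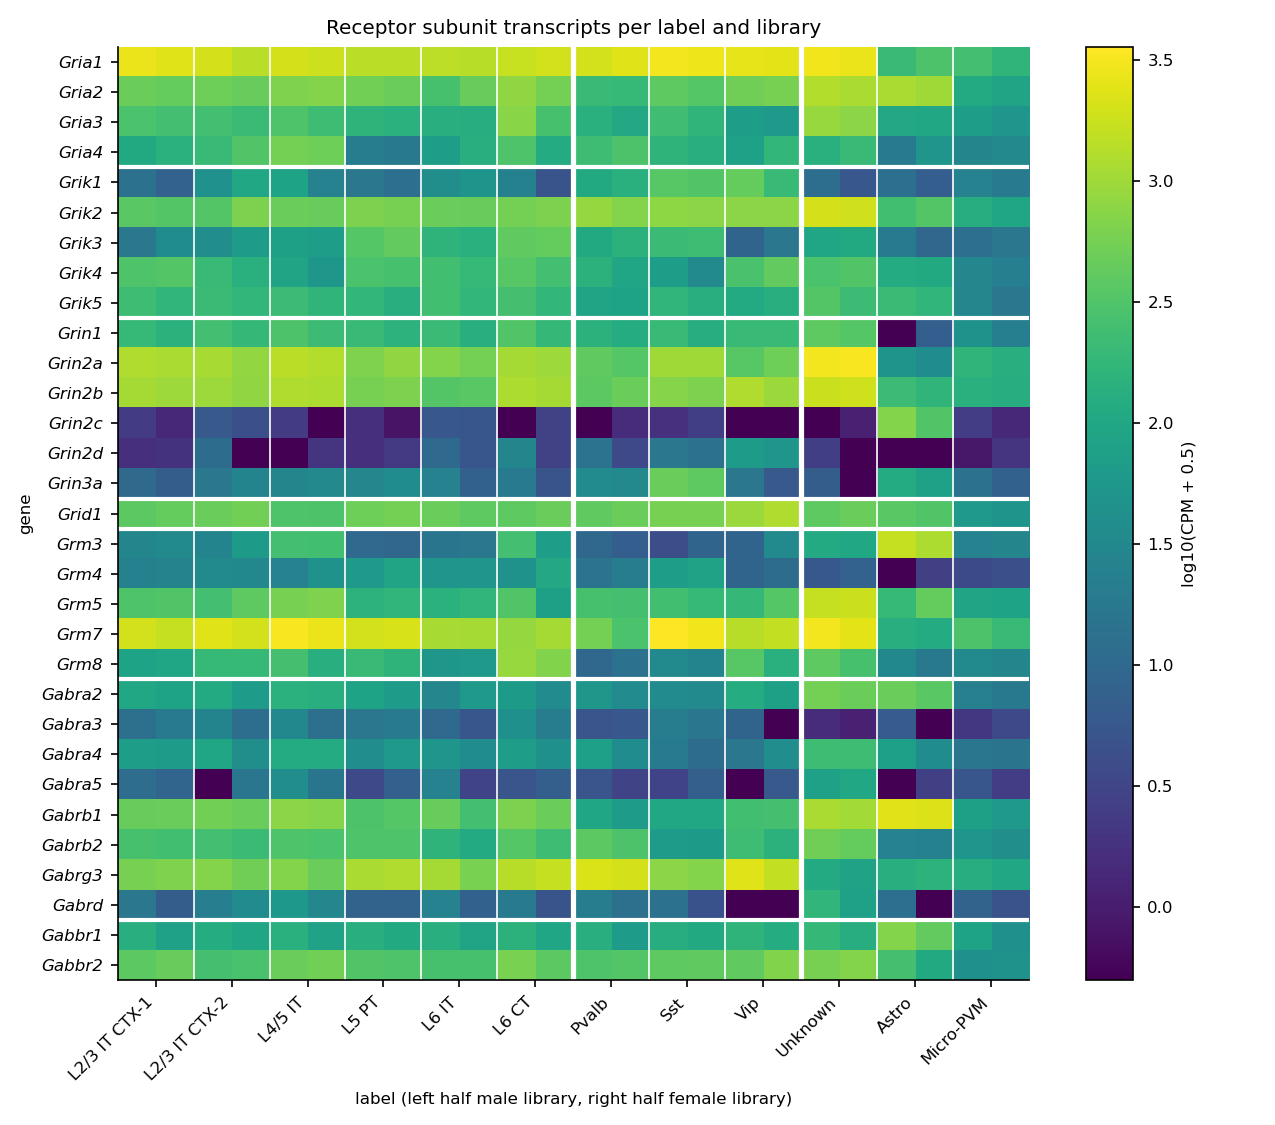
Heat map of log10(CPM + 0.5) for the 31 subunit genes (rows, grouped by family) in 12 labels, each label with the male library in its left column and the female library in its right column. Gria1, Grm7, Gabrg3 and Grin2a are bright over most neuron labels, while Grin2c, Grm3 and Gabrb1 are brightest in Astro and most rows are dim in Micro-PVM.

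Over all neurons, the most abundant subunit transcripts were Gria1 (2161 CPM male, 1995 CPM female), an AMPA subunit, and Grm7 (2073 and 1736 CPM), a presynaptic metabotropic receptor that inhibits release. Gabrg3, a GABA-A gamma subunit, followed at 1053 and 1150 CPM, then the NMDA subunits Grin2a (942 and 867 CPM) and Grin2b (826 and 738 CPM). Nuclear RNA was counted over whole genes, introns included, and long genes gave more UMIs. Member genes spanned a median of 240 kb against 29.0 kb for all genes. Across the 31 members the log10 level and log10 gene length had a Pearson correlation of 0.69 (Spearman 0.69), against 0.54 (0.52) across 13834 genes, which is a description over genes sharing the same libraries.

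Per 100 kb of gene, the order changed. Gria1 (678 male, 626 female CPM per 100 kb) and Grin1 (742 and 546), the subunit that every NMDA receptor contains, then stood highest and overlapped. Gabbr1 (464 and 317 CPM per 100 kb), the GABA-B subunit that binds GABA, and Gria2 (397 and 353), the AMPA subunit whose edited form keeps calcium out, came next and overlapped each other. Grik5, a kainate subunit, had 304 and 222 CPM per 100 kb. Grm7 (225 and 188 CPM per 100 kb) stood beside Grin2a (220 and 203), and Gabrg3 was at 157 and 171. At the low end, Grin2c had 8.13 and 5.77 CPM per 100 kb and Gabra3 7.65 and 6.64.

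The labels differed in how much subunit RNA they held in all. Summed over the 31 genes, L4/5 IT had the most among the excitatory labels (15045 CPM male, 13280 female) and L6 IT the least (8504 and 7410 CPM). L5 PT had 10334 and 10729 CPM, Pvalb 9398 and 9075, and Sst 13983 and 12434. The label with the highest mean was L4/5 IT for 11 members, L6 CT for 6, Sst and Vip for 5 each, Pvalb for 3 and L6 IT for 1, and none was highest in L2/3 IT or L5 PT. The L6 IT entry, Grin2c, rested on 1 and 2 UMIs and gives no order. Both libraries named the same top label for 17 of 31 members.

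**Figure D2:**
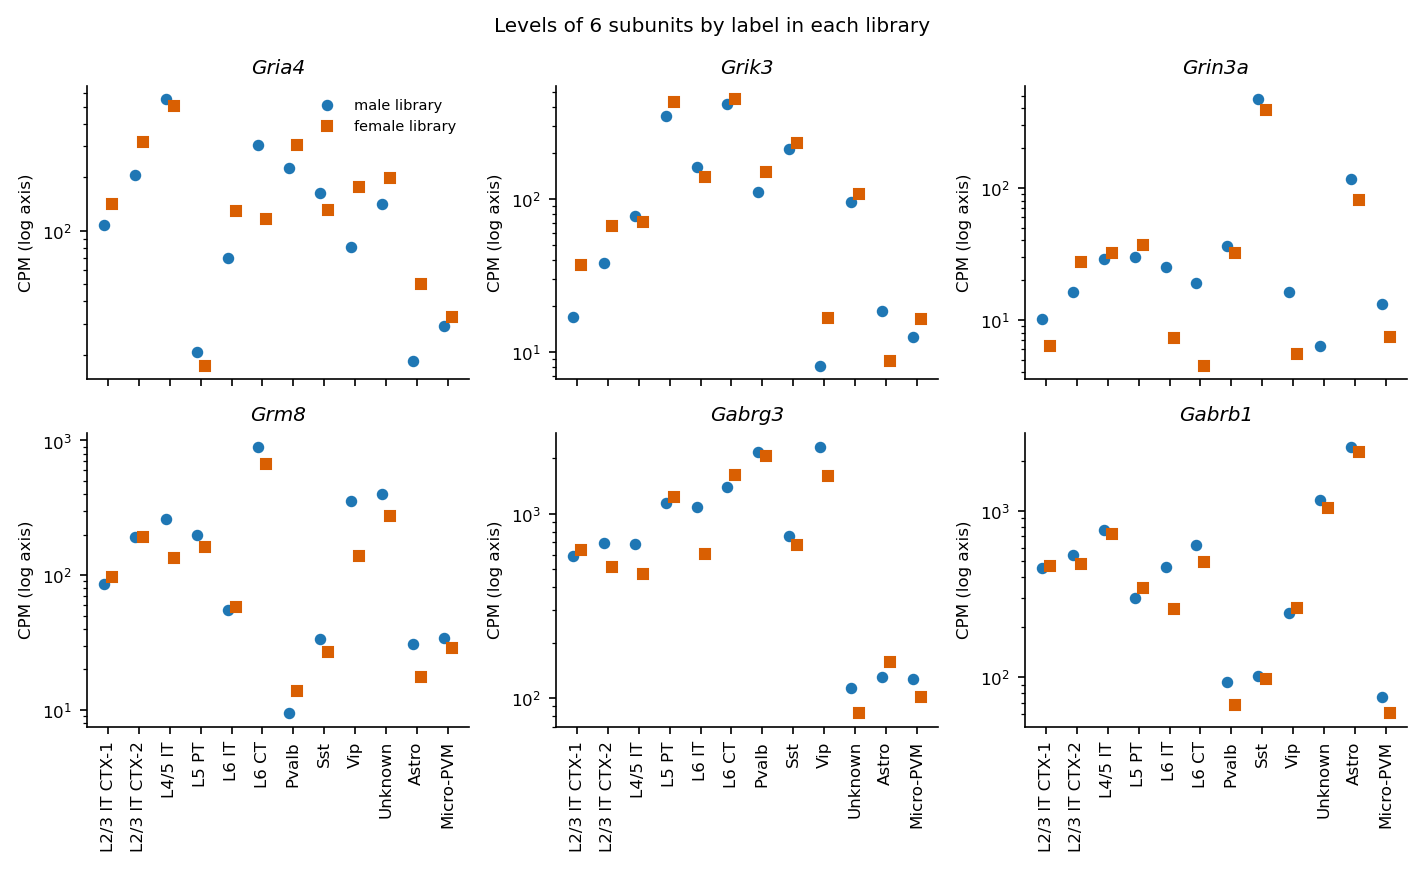
CPM on a log axis for Gria4, Grik3, Grin3a, Grm8, Gabrg3 and Gabrb1 (1 panel each) in 12 labels, circles for the male and squares for the female library; a value of 0 (Grin3a, female Unknown) is not drawn. The genes were chosen after their values were seen. Gria4 is lowest in L5 PT and highest in L4/5 IT, and Grin3a stands alone in Sst.

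Interneurons and excitatory neurons carried different subunits of the same families. Of 30 members tested, 7 were higher and 13 lower in the interneuron labels by edgeR's quasi-likelihood test (adjusted p under 0.05 over 8664 genes), or 66.7%, where 24.6% of all genes passed (11.9% higher, 12.7% lower). The members' median log2 fold change was -0.50 and that of all genes -0.05. Members were more abundant in neurons, with a median of 180 CPM against 14.9 CPM over 13834 genes, and abundant genes are called more easily at a given fold. Shares among genes of like level were not counted, here or in the comparisons below. Class means were compared, and single labels could lie against the class. With L6 IT left out, 21 members passed (7 higher, 14 lower), the same 20 among them. The labels were made from these counts, so the groups are partly defined by genes tested, and the p-values measure the spread between 2 pooled libraries.

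Among AMPA subunits, Gria1 was 1.49-fold higher in interneurons (log2 fold change 0.58 ± 0.09 SE, edgeR adjusted p = 5.99e-05). Its levels were 3084 and 2848 CPM in Sst, 2540 and 2467 in Vip, and 1427 and 1455 in L5 PT (male and female). L2/3 IT CTX-1, at 2742 and 2287 CPM, overlapped the interneuron labels. Gria2 and Gria3 went the other way. Gria2 was 1.43-fold lower (log2 -0.52 ± 0.12, edgeR adjusted p = 0.00255), at 208 and 194 CPM in Pvalb against 271 to 826 CPM over the excitatory sums. Sst (394 and 346 CPM) and Vip (519 and 572) lay inside that excitatory range. Gria3 was 1.88-fold lower (log2 -0.91 ± 0.17, edgeR adjusted p = 0.000319), with 73.0 and 61.1 CPM in Vip as its lowest level.

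The kainate receptor subunit Grik1 separated the classes most by fold among the members. It had 362 and 324 CPM in Sst, 438 and 200 in Vip and 109 and 141 in Pvalb. Excitatory sums ranged from 4.49 to 102 CPM, all below every interneuron sum, and 6 of the 12 lay under the Micro-PVM level of 25.3 and 19.9 CPM. Grik1 was 9.61-fold higher in interneurons (log2 3.27 ± 0.21, edgeR adjusted p = 9.8e-11). When free RNA (10% of each sum) was subtracted, the log2 difference of Grik1 was 4.22. Grik2, which forms channels by itself or with other kainate subunits, was 1.67-fold higher (edgeR adjusted p = 3.83e-05). The subunits Grik4 and Grik5, which work only together with Grik1 to Grik3, were 1.51-fold and 1.54-fold lower (edgeR adjusted p = 0.00488 and 0.000332). For Grik4 the class difference lay in Sst (71.6 and 33.4 CPM) and Pvalb (150 and 90.9), as Vip, at 276 and 422, had the highest mean of the 9 neuron labels and L4/5 IT only 89.0 and 54.9.

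In the NMDA family the common subunit Grin1 gave no call (log2 -0.24, edgeR adjusted p = 0.19) and neither did Grin2b (log2 -0.17, edgeR adjusted p = 0.27), while 3 modulatory subunits did. Grin2a, the subunit that rises as cortex matures, was 1.64-fold lower in interneurons (log2 -0.72 ± 0.11, edgeR adjusted p = 2.83e-05). It had 405 and 345 CPM in Pvalb and 357 and 511 in Vip, but 1028 and 1016 in Sst, above L5 PT (639 and 816) and L6 IT (693 and 568). Grin2d was rare, with 64.9 CPM (8 UMIs) and 50 CPM (9 UMIs) in Vip, 16.3 and 13.9 in Sst and 0 to 28.7 over the excitatory sums, and was higher in interneurons (log2 2.61 ± 0.48, edgeR adjusted p = 0.000243). Grin3a, whose subunit lowers calcium entry, was almost all in Sst, at 469 and 392 CPM against 4.49 to 37.0 CPM in the other 8 neuron labels. No other neuron sum came near the Sst pair, and the class call of Grin3a was lost in 1 of 10 alternatives (adjusted p = 0.27). A Grin3a UMI was found in 66.1% (male) and 79.0% (female) of Sst nuclei and in 1.95% and 2.44% of Micro-PVM nuclei, and with each nucleus thinned to 2300 UMIs in 60.5% and 49.3% against 2.58% and 2.07%.

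Among the metabotropic receptors, Grm8, a presynaptic receptor of the same group as Grm7, was 3.66-fold lower in interneurons (log2 -1.87 ± 0.18, edgeR adjusted p = 5.14e-08, log2 -3.12 after subtraction of free RNA). It had 9.46 and 13.9 CPM in Pvalb and 33.9 and 27.1 in Sst, at or below the Micro-PVM level of 34.5 and 29.0, but 357 and 139 in Vip. Grm3 was 4.03-fold lower (log2 -2.01, edgeR adjusted p = 7.1e-05, log2 -4.42 after subtraction of free RNA), but rested on L4/5 IT (255 and 245 CPM) and L6 CT (253 and 69.6), as the other neuron sums were at 3.77 to 62.5 CPM against 24.9 and 28.4 in Micro-PVM. Grm7 was also called lower in the interneuron labels as a class, but these lay far apart. Its highest mean among the neuron labels was in Sst (3285 CPM) and its lowest in Pvalb (424 CPM). The delta receptor gene Grid1 was higher in interneurons by 1.61-fold (edgeR adjusted p = 4.83e-05) and highest in Vip, at 957 and 1228 CPM.

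Of the GABA-A subunits, Gabrb1 was 3.54-fold lower in interneurons (log2 -1.82 ± 0.12, edgeR adjusted p = 1.05e-10). Its Pvalb and Sst sums, 67.6 to 102 CPM, and its Vip sums, 243 and 261 CPM, lay beside 256 to 760 CPM over the excitatory sums, so the ranges met only at Vip. Gabra2, Gabra3, Gabra4 and Gabrb2 were lower by 1.39-fold to 2.33-fold (edgeR adjusted p = 0.0337, 0.0497, 0.00194 and 0.000894). The Gabra3 call was lost in 6 of 10 alternatives (adjusted p up to 0.12) and the Gabra2 call in 2 (up to 0.081). Gabrb2 was low in Sst (67.8 and 62.6 CPM) but highest of the 9 neuron labels in Pvalb (388 and 305 CPM). Gabrg3 was 1.83-fold higher (log2 0.87 ± 0.11, edgeR adjusted p = 2.8e-06), with 2173 and 2056 CPM in Pvalb and 2312 and 1611 in Vip. Sst, at 759 and 679 CPM, did not share that level and lay within the excitatory range. Neither GABA-B subunit was called.

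Transcripts of genes that work beside the receptors were counted in the same nuclei. Of 41 partner genes (auxiliary subunits, synaptic scaffolds, and genes of transmitter synthesis and uptake), 37 were tested and 13 were higher and 5 lower in interneurons (48.6%, beside 24.6% of all genes). Among those with the lowest adjusted p were Gad2 and Gad1, which make GABA, with Grip1 and Grip2, which bind AMPA receptors, and Slc1a2, a glutamate transporter. Grip1 had 3910 and 4288 CPM in Pvalb and 433 and 528 in L4/5 IT (log2 2.69 ± 0.10, edgeR adjusted p = 4.22e-15). Slc1a2 was lower in interneurons (log2 -2.67 ± 0.22, edgeR adjusted p = 3.46e-09), and it is also an astrocyte marker. The 6 astrocyte markers together, Slc1a2 among them, were at 24.8 to 57.7 CPM in the interneuron labels and 42.4 to 326 CPM in the excitatory labels. That sum contains Slc1a2 itself and is no separate measure of astrocyte RNA. The part of astrocyte RNA in this difference was not tested.

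**Figure D3:**
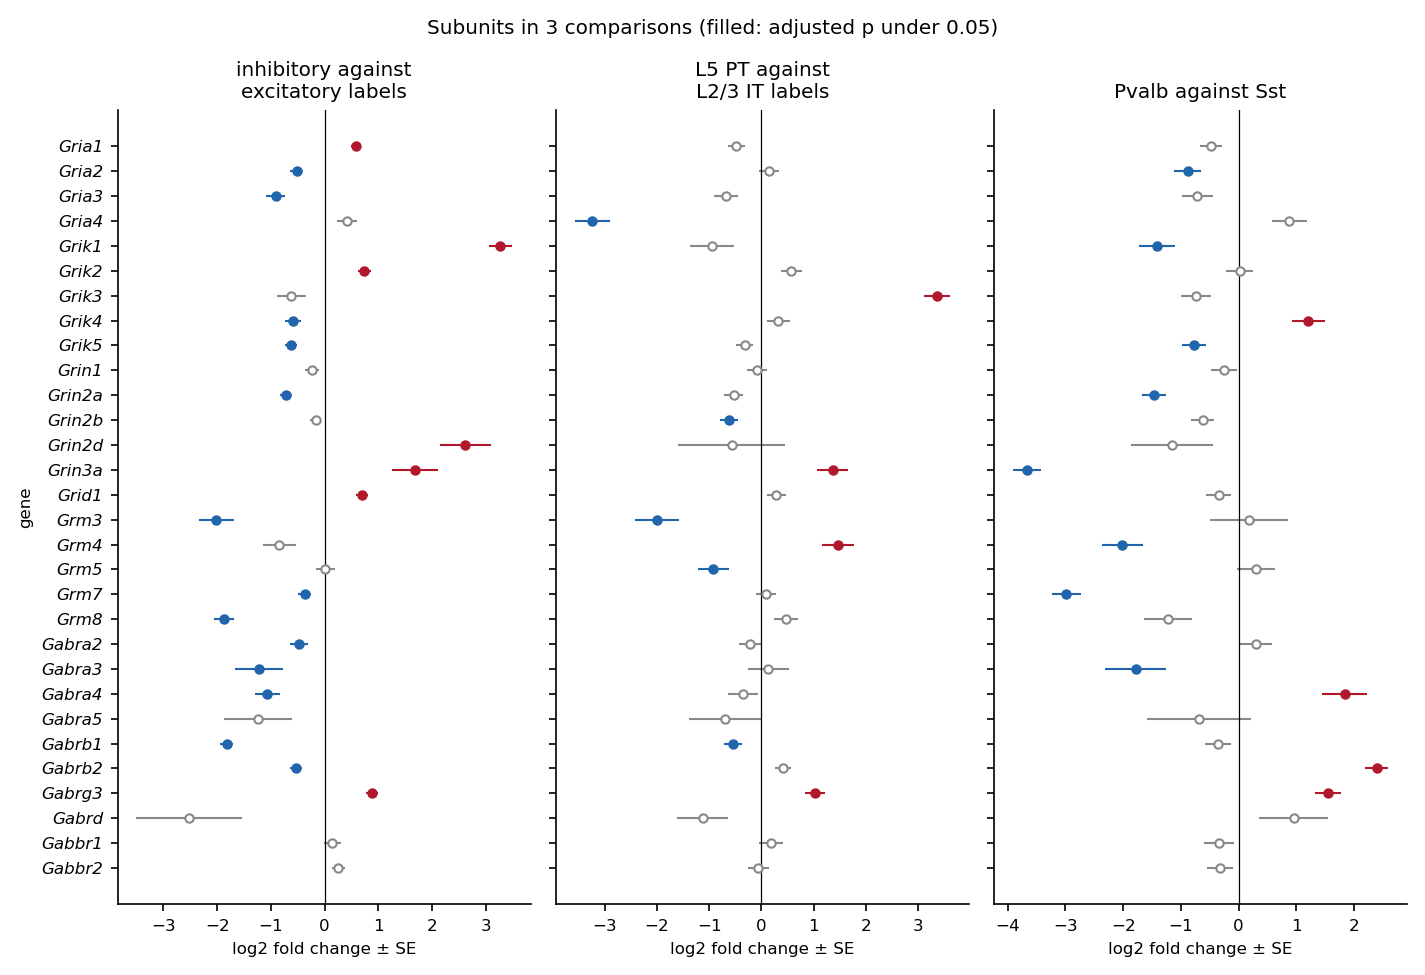
Log2 fold change ± SE of 30 members in 3 comparisons (panels), fitted on sums of 2 libraries per label; filled points passed an adjusted p of 0.05 (red higher, blue lower), open points did not. Grik1 is the highest point of the first panel, Grik3 and Gria4 lie at opposite ends of the second, and Gabrb2 and Grin3a at opposite ends of the third.

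L5 PT neurons, the projection cells of the deep layer, were set against the L2/3 IT labels, the 2 layers that the study contrasts. Of 30 members 4 were higher and 5 lower in L5 PT, or 30% beside 12.8% of all genes (6.76% higher, 5.99% lower), with a median log2 fold change of -0.15 (all genes -0.02). With the library as a block, 14 members passed (6 higher, 8 lower), the same 9 among them.

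The kainate subunit Grik3 and the AMPA subunit Gria4 moved in opposite directions. Grik3 had 348 and 429 CPM in L5 PT, 16.8 and 36.7 in L2/3 IT CTX-1 and 38.2 and 66.4 in L2/3 IT CTX-2. It was 10.3-fold higher in L5 PT (log2 3.36 ± 0.25, edgeR adjusted p = 5.85e-09), and the groups did not overlap. Gria4, which gives AMPA receptors fast kinetics, had 20.8 and 17.4 CPM in L5 PT, 108 and 142 in L2/3 IT CTX-1 and 207 and 316 in L2/3 IT CTX-2. It was 9.43-fold lower in L5 PT (log2 -3.24 ± 0.34, edgeR adjusted p = 7.75e-07, log2 -4.69 after subtraction of free RNA). L5 PT was under the 29.3 and 32.7 CPM of Micro-PVM, with 34 and 60 UMIs. After subtraction of free RNA it kept 10.9 and 4.49 CPM, so its Gria4 was low but not shown to be absent.

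Gabrg3 was 2.03-fold higher in L5 PT (log2 1.02 ± 0.19, edgeR adjusted p = 0.000643), at 1151 and 1234 CPM against 515 to 693 CPM over the 4 L2/3 IT sums. Grm4, a presynaptic metabotropic receptor, was 2.77-fold higher (edgeR adjusted p = 0.00171) from a low base, 60 and 90.2 CPM against 24.1 to 32.7. Grin3a was 2.58-fold higher (log2 1.37, edgeR adjusted p = 0.00238), at 30 and 37.0 CPM against 6.35 to 27.3, with a log2 difference of 2.20 after subtraction of free RNA and 2.09 without L2/3 IT CTX-2. Every L5 PT sum of these 3 lay above every L2/3 IT sum, for Grin3a by only 30 against 27.3 CPM. The 3 were already called higher, and the share of all genes separated in this way was not counted.

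Lower in L5 PT were Grm3 (3.99-fold), Grm5 (1.89-fold), Grin2b (1.54-fold) and Gabrb1 (1.46-fold), with edgeR adjusted p = 0.00201, 0.0393, 0.0218 and 0.0448. The calls of Grm5 and Gabrb1 were each lost in 4 of 10 alternatives (adjusted p up to 0.13 and 0.28) and that of Grin2b in 1 (0.11). Grm5, which raises calcium through phospholipase C, had 157 and 174 CPM in L5 PT and 251 to 394 over the L2/3 IT sums, and Grin2b 587 and 630 CPM against 828 to 1093. Grm3 was at 9.8 and 8.97 CPM in L5 PT, below the Micro-PVM level, and at 27.3 to 62.5 in L2/3 IT (log2 -2.00, and -4.70 after subtraction of free RNA or -1.36 in the male library alone). The 6 astrocyte markers, Slc1a2 among them, summed to 42.4 CPM in L5 PT and 162 and 126 CPM in the L2/3 IT labels. Grm3, Gabrb1 and Slc1a2 were high in Astro. Their part in these differences was not tested. Of the 37 partner genes 5 were higher and 8 lower (35.1%, beside 12.8% of all genes). Those with the lowest adjusted p were all lower, namely the AMPA auxiliary subunits Cacng2 (2.84-fold) and Gsg1l (9.46-fold), the GABA-B auxiliary subunit Kctd16 (3.76-fold), the inhibitory synapse protein Iqsec3 (2.61-fold), Slc1a2 and Gad2.

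The L4/5 IT label, a neighbouring layer, was set against the same L2/3 IT sums, so both comparisons share them. Gria4, Grm3, Grm5 and Gabrb1 were called in both, lower in L5 PT and higher in L4/5 IT. In L4/5 IT the call of Grm5 was lost in 5 of 10 alternatives and that of Gabrb1 in 2 (adjusted p up to 0.13 for each), and both calls were also lost under some alternatives in L5 PT. Of 30 members 5 were higher and 1 lower, 20% beside 3.94% of all genes (2.85% higher, 1.08% lower), with a median log2 fold change of 0.52 (all genes -0.02). The count was 15 with the library as a block and 3 in nuclei with at least 2300 UMIs, so it depended on the fit. Grm3, a receptor of neurons and astrocytes, was 6.66-fold higher (log2 2.74 ± 0.31, edgeR adjusted p = 2.18e-05). Summed over the 6 astrocyte markers, Slc1a2 included, L4/5 IT had 326 CPM against 162 and 126 CPM in the L2/3 IT labels. In each library of L4/5 IT, 3 of the 6 markers were at 0. The part of astrocyte RNA in the Grm3 level was not tested. Gria4, at 551 and 504 CPM, was 2.97-fold higher (edgeR adjusted p = 0.00107), and Grm7 was called higher as well. Grik4, at 89.0 and 54.9 CPM against 141 to 337, was 3.17-fold lower (edgeR adjusted p = 0.00108).

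In L6 CT, 6 members were higher and 1 lower than in the mean of the other excitatory labels (23.3% beside 8.6% of all genes, of which 4.22% higher and 4.37% lower, median log2 0.26 and -0.02). Only 41 male and 44 female nuclei carried the label. Grm8 was 5.83-fold higher (log2 2.54 ± 0.19, edgeR adjusted p = 4.83e-09), at 898 and 666 CPM against 55.2 to 263 CPM. Grik3 was 4.62-fold higher (log2 2.21 ± 0.21, edgeR adjusted p = 1.76e-07), at 416 and 447 CPM, with L5 PT the next label. The libraries disagreed on Gria3 (731 and 267 CPM) and on Grm3 (253 and 69.6 CPM), both called higher, with a male value over 2 times the female. The log2 difference of Gria3 was 1.18 in both libraries together and 0.45 in the female alone. That of Grm3 was 1.96 together, 2.96 in the male alone, 0.79 in the female alone and 2.84 after subtraction of free RNA. The same 6 astrocyte markers summed to 312 CPM in this label, with 3 of them at 0 in each library. The part of astrocyte RNA in its Grm3 level was not tested. Grin2b and Gabrg3 were called higher as well. Grm7 was the member that was lower, at 893 and 1086 CPM (1.97-fold, edgeR adjusted p = 0.00159).

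The 2 largest interneuron labels differed in 12 members, 4 higher and 8 lower in Pvalb than in Sst, or 40% beside 7.79% of all genes (3.99% higher, 3.8% lower, median log2 -0.41 and -0.01). Grin3a was 12.7-fold lower in Pvalb (log2 -3.66 ± 0.25, edgeR adjusted p = 1.05e-09). Grm7 was 7.91-fold lower (log2 -2.98 ± 0.24, edgeR adjusted p = 2.05e-08), at 560 and 289 CPM in Pvalb and 3588 and 2983 in Sst, which were its lowest and highest neuron labels by mean. Grin2a (405 and 345 CPM against 1028 and 1016) was 2.75-fold lower, Grik1 2.66-fold, Grm4 4.05-fold, Gria2 1.84-fold, Grik5 1.71-fold and Gabra3 3.43-fold. The Gabra3 call was lost in 3 of 10 alternatives and those of Grik1 and Grik5 in 1 each (adjusted p up to 0.093, 0.071 and 0.052).

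Higher in Pvalb were GABA-A subunits and Grik4. Gabrb2 had 388 and 305 CPM in Pvalb and 67.8 and 62.6 in Sst (5.25-fold, log2 2.39 ± 0.20, edgeR adjusted p = 2.6e-08). Gabra4 had 74.1 and 37.2 CPM against 18.8 and 11.1 (3.58-fold, edgeR adjusted p = 0.00305), and Gabrg3 was 2.93-fold higher (edgeR adjusted p = 5.45e-05). Sst was thus the neuron label with the least Gabrb2, and its sum over the GABA-A members (1020 and 910 CPM) was the lowest of the 9 neuron labels in both libraries, against 2813 and 2523 CPM in Pvalb.

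Vip nuclei, 34 male and 27 female, differed from the mean of Pvalb and Sst in 11 members, 8 higher and 3 lower (36.7% beside 9.2% of all genes, of which 4.72% higher and 4.48% lower, median log2 0.24 and -0.06). Grm8 was 11.3-fold higher (log2 3.49 ± 0.34, edgeR adjusted p = 2.41e-07) and Grik4 4.45-fold higher (276 and 422 CPM, log2 2.15, edgeR adjusted p = 6.77e-06). Grm8 was at or below the Micro-PVM level in Pvalb and Sst. Its log2 difference ranged from 3.30 to 5.41 over the alternatives, the highest after subtraction of free RNA, and was 2.53 in the female library alone. That of Grik4 was 1.19 in the male library alone. Gabrb1, Gabra2, Grid1, Grin2b, Gria2 and Grin2d were higher by 1.90-fold to 5.28-fold. Grik3 and Grin3a were lower (edgeR adjusted p = 7.55e-05 and 6.5e-05) and near 0 in Vip, with 1 and 3 UMIs of Grik3 and 2 and 1 of Grin3a, too few for a fold and close to the Micro-PVM level. In Pvalb and Sst, Grik3 had 110 to 231 CPM. Gria3 was 2.47-fold lower (edgeR adjusted p = 0.0347). The calls of Gria3 and Grin2d were each lost in 2 of 10 alternatives and that of Gabra2 in 1 (adjusted p up to 0.08, 0.06 and 0.062).

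Shares within a family need no scaling by library depth, and gene length is the same in each label, so shares were compared across labels. Free RNA was not subtracted from them. Grin2a made up 53.4% (95% Clopper-Pearson interval 51.8 to 55.0) and 54.4% (53.0 to 55.8) of the Grin2a and Grin2b UMIs in L2/3 IT CTX-1. In Vip it was 22% (16.5 to 28.4) and 35.5% (29.7 to 41.7), below every other neuron label in both libraries. Pvalb had 51.7% in the male library but 41.4% (39.0 to 43.8) in the female, where its interval overlapped that of Vip. Sst (58.8% and 61.8%) and L6 IT (67.6% and 60.4%) were at the upper end. Intervals here cover counting error only.

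Gria2 made up 8.2% and 6.66% of the AMPA UMIs in Pvalb (intervals 6.91 to 9.65 and 6.03 to 7.35) and 10.2% and 9.92% in Sst. In L5 PT it was 25.4% (24.0 to 26.9) and 22.6% (21.7 to 23.6). Gria1 accounted for 77.4% and 79.2% in Pvalb and 79.6% and 81.5% in Sst, and for 57.8% and 56.3% in L4/5 IT, where Gria4 reached 15.5% and 15.6%. Gria4 was 0.965% and 0.83% in L5 PT. As Gria1 and Gria2 genes differ in length, these shares rank labels and not subunits.

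**Figure D4:**
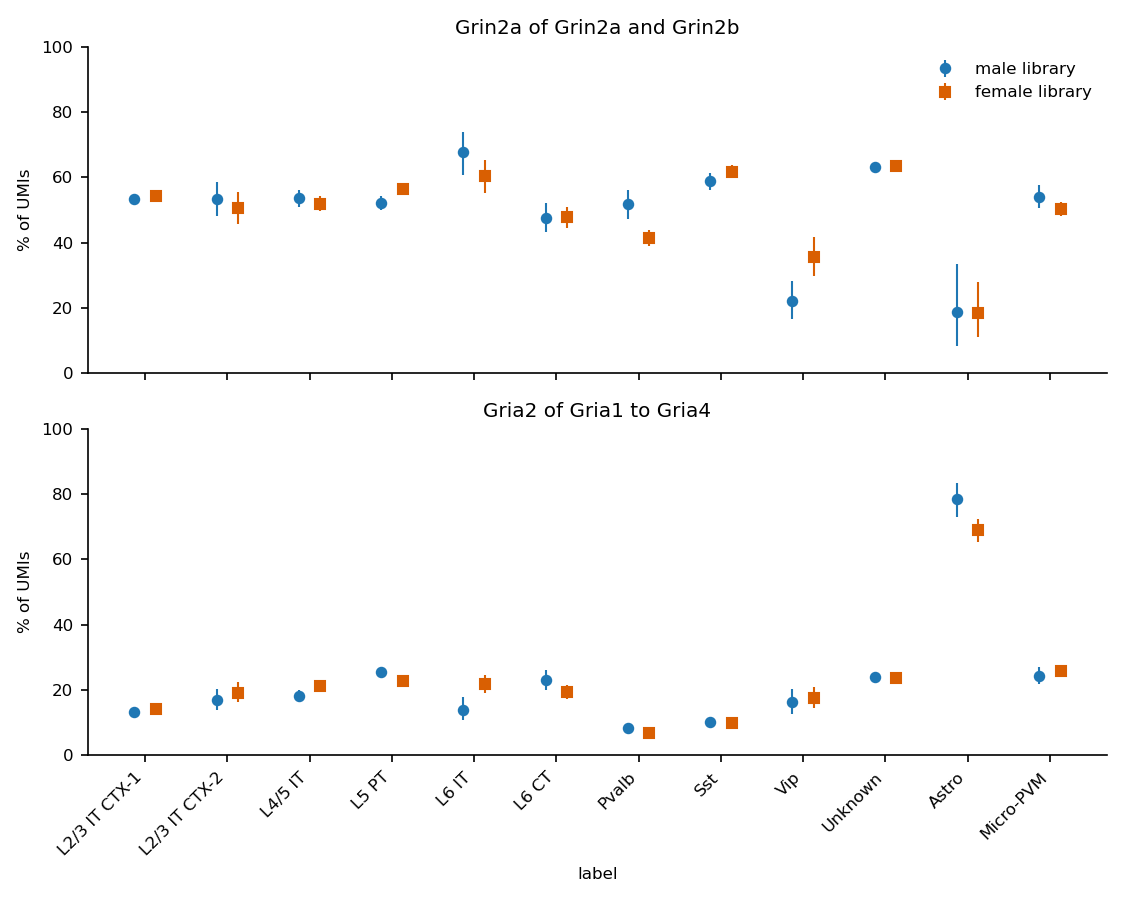
Share of Grin2a among Grin2a and Grin2b UMIs (top) and of Gria2 among Gria1 to Gria4 UMIs (bottom), in percent, for 12 labels; circles are the male and squares the female library, with 95% Clopper-Pearson intervals. The Grin2a share is lowest among neurons in Vip (22% and 35.5%), and the Gria2 share is 69.0% or more in Astro and under 11% in Pvalb and Sst.

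The Unknown nuclei (225 male, 170 female), neurons that the study could not place in the cortex, held the most subunit RNA of any label, 22644 and 21409 CPM over the 31 genes. Against the mean of the neuron labels, 21 of 31 members were higher and 5 lower (83.9% beside 33.2% of 10824 genes, of which 19.0% higher and 14.2% lower, median log2 0.97 and 0.04). The rise covered AMPA, kainate, NMDA, metabotropic and GABA-A genes. Grm5 had 1637 and 1744 CPM, above every neuron sum (78.5 to 652), and was 7.24-fold higher (log2 2.86 ± 0.21, edgeR adjusted p = 1.15e-11). Grin2a, at 3067 and 3293 CPM, was 4.41-fold higher (edgeR adjusted p = 1.35e-13), and Gria3, at 922 and 769, 5.01-fold (edgeR adjusted p = 1.12e-12).

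GABA-A subunits differed from the neuron labels in both directions in Unknown. Gabra2 had 561 and 493 CPM, against 30.1 to 145 over the neuron sums and 464 and 367 in Astro (8.60-fold, edgeR adjusted p = 7.71e-17). Gabra5 had 78.7 and 98.4 CPM (13.6-fold, edgeR adjusted p = 2.06e-10), and Gabrd, a subunit of receptors outside the synapse, 170 and 81.4 CPM (16.2-fold, edgeR adjusted p = 3.18e-10), each above all neuron sums. In contrast Gabrg3, at 114 and 82.6 CPM, was 9.27-fold lower (log2 -3.21 ± 0.23, edgeR adjusted p = 5.08e-12, log2 -4.47 after subtraction of free RNA) and no higher than in Micro-PVM (127 and 102 CPM). Gabra3 (1 UMI in each library), Grin3a (6 and 0 UMIs), Grm4 (5.32 and 7.57 CPM) and Grik1 (11.7 and 5.04 CPM) were lower too. Grm2 was near 0 in neuron labels but had 28.7 and 20.8 CPM here.

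Astrocytes carried a different, smaller set. Of 31 members 7 were higher and 18 lower than in neurons (80.6% beside 35.8% of all genes, of which 19.4% higher and 16.5% lower, median log2 -1.33 and -0.01). Grin2c had 699 and 317 CPM in Astro and 0 to 5.46 over the neuron sums, from 53 male and 62 female nuclei (edgeR adjusted p = 4.51e-18). Grm3 had 1646 and 1207 CPM (46.7-fold higher, log2 5.55, edgeR adjusted p = 7.09e-19, log2 7.11 after subtraction of free RNA) and Gabrb1 2419 and 2246 (7.20-fold, edgeR adjusted p = 1.37e-16). Gabra2 (5.69-fold), Gabbr1 (4.5-fold), Grin3a (3.56-fold) and Gria2 (2.26-fold) made up the rest. The Grin3a fold is against a mean of unlike neuron labels, from 8.29 CPM in L2/3 IT CTX-1 to 430 CPM in Sst (means of both libraries). It does not mean that Astro held more Grin3a than each neuron label. Gabrg1, which did not reach the limit in neurons, had 43.3 and 41.5 CPM. Grin1, the subunit that Grin2c pairs with, had 0 UMIs in the male library, which allows up to 18.6 CPM (3 counts), and 3 UMIs in the female.

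In Micro-PVM 28 of 31 members were lower than in neurons and none higher (90.3% beside 64.1% of all genes, of which 36.3% higher and 27.8% lower, median log2 -2.19 and 0.18). The lowered levels were not 0. Grm7 kept 305 and 200 CPM, Gria1 249 and 164, and Gabrg3 127 and 102, and low neuron levels were set beside those of Micro-PVM above. Micro-PVM nuclei were shallower than the median neuron, with medians of 1298.5 and 3012.5 UMIs. Their level need not equal the free RNA in neurons. Grin2c, Grm3 and Gabrd gave no call.

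Neurons that still held an Atf3 UMI at 7 dpi were compared with those that did not, within library and label, since the study ties Atf3 to lower ion channel expression. Of 24 members tested, 7 were lower and none higher (29.2% beside 5.28% of 3975 genes, of which 1.91% higher and 3.37% lower, median log2 -0.17 and -0.01). The 17 library and label pairs served as the replicates here, and all came from the same 2 pooled libraries. These p-values thus measure the spread over pairs and not over animals. Nuclei with an Atf3 UMI were deeper, with medians of 4347 against 3391.5 UMIs (male) and 10966 against 6737 UMIs (female). With each nucleus thinned to 2300 UMIs before its status was read, 0 of 19 members passed in edgeR (9 at an unadjusted p under 0.05), with 9 library and label pairs left of 17. Without the block, 0 of 24 passed (5 at an unadjusted p under 0.05), and DESeq2 with the block called 10, all lower. Thinning changed the status, the nuclei kept and the counts together, and which of these lowered the count was not tested.

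Gria4 had a mean over labels of 98.7 CPM with and 211 CPM without an Atf3 UMI in the male library, and 119 and 325 CPM in the female. It was lower in 15 of 17 library and label pairs (2.13-fold, log2 -1.09 ± 0.15, edgeR adjusted p = 2.09e-05, and 0.11 after thinning). Both L5 PT pairs were in the fit, although Gria4 was under the Micro-PVM level there. It was lower with an Atf3 UMI in male L5 PT (19.0 against 21.5 CPM) but not in female L5 PT (19.6 against 14.8 CPM). Grm5 (185 and 310 CPM male, 169 and 376 female) was lower in 14 of 17 pairs (1.85-fold, edgeR adjusted p = 0.000574). Grin2a was lower in 17 of 17 pairs but by little, 749 against 915 CPM in the male and 704 against 951 in the female library (1.30-fold, edgeR adjusted p = 0.00614). Gria3 (1.85-fold), Grm8 (1.45-fold), Grin1 (1.36-fold) and Gria2 (1.36-fold) had edgeR adjusted p = 0.00258, 0.0134, 0.00347 and 0.00261. The log2 difference of Gria3 was -0.89 together and -1.54 in the female library alone, and that of Grm8 -0.54 together and -1.22 in the male library alone. Members of the 2 GABA receptor families gave no call.

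**Figure D5:**
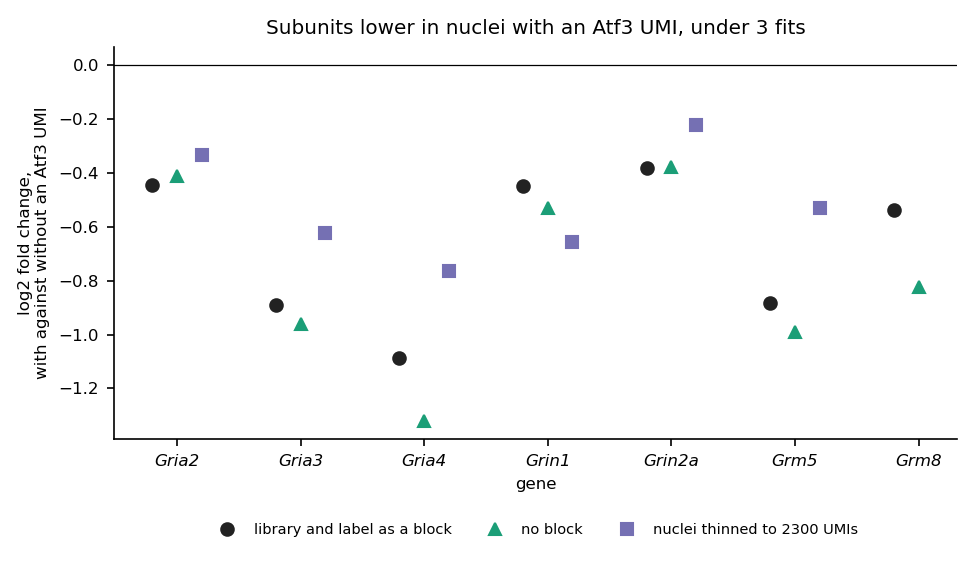
Log2 fold change in nuclei with against without an Atf3 UMI for the 7 members called lower, by the fit with library and label as a block (circles), without the block (triangles) and after thinning each nucleus to 2300 UMIs (squares; Grm8 was not tested there). All points lie below 0, but only the circles passed the test.

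ATF3 is known to bind the CRE site TGACGTCA and the AP-1 sites TGACTCA and TGAGTCA. These, and the looser TGANTCA with any middle base, were looked for on both strands in the RefSeq promoter windows of build GRCm38.p6, from 250 bases before to 50 after each start. Of the members 24 had at least 1 window (31 windows). TGACGTCA was in 0 of them and in 1.79% of all 32851 windows, and either AP-1 site was in 0 and in 5.2% of all windows. The looser TGANTCA was in 1 window each of Grm8 and Grin3b and in 7.81% of all windows, and TGATTCA in Grm8 is not 1 of the 2 AP-1 sites. Since Grm8 was among the members lower in nuclei with an Atf3 UMI, its window is shown up to the start, chr6:28135147-28135396 on the minus strand, with the match in capitals. It is 1 of 3 windows listed for this gene.
Grm8: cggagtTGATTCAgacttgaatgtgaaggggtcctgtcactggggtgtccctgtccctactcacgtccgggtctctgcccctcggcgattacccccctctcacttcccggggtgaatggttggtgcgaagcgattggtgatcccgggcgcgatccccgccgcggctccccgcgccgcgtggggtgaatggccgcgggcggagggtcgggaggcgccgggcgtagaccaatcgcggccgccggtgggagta
The match is a description of the letters only, and no binding was measured in these libraries.

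Between the libraries, 25 of 31 members had a higher CPM in male than in female neurons, with a median log2 ratio of 0.18 and a range of -0.49 to 0.85, beside a median of 0.14 over 13854 genes. Of those 13854 genes, 9479 were also higher in the male library. Gabbr1, Gabrb2 and Gria3 were higher in the male library in all 9 neuron labels, and Grm4 in 1 of 9. With 1 library a sex and a deeper female library, this difference had no replicate check.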

How the data were processed

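Members and gene lists were chosen with earlier results of these data known. The deposited values used were UMI counts per gene and nucleus in filtered and raw 10x matrices (31053 genes, mm10). The authors made these counts with Cell Ranger, with introns counted. The file headers give versions 7.0.1 (male) and 7.0.0 (female) for the filtered matrices, and the submitters' processing notes give 3.1.0. Labels and the percent of mitochondrial UMIs per nucleus were deposited by the authors in a metadata table made with Seurat, which maps nuclei to a reference atlas. A deposited table of corrected values was not used. The treatment of doublets was not given in the sources used here, and no doublet caller was run. Both libraries shared 1 barcode.

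Counts were summed per library and label, and CPM was taken over each sum. Genes with more than 1 row per symbol were left out of the lists (Pick1). edgeR 4.0.16 (R 4.3.3) was run with TMM, filterByExpr and the quasi-likelihood test on 18 neuron sums, or 24 with Unknown, Astro and Micro-PVM, with Benjamini-Hochberg adjustment over all genes. For Atf3 status, sums needed at least 10 nuclei in both states, with library and label as a block. Tested on simulated data for interneurons against excitatory labels (7933 genes), the fit recovered 72.2% of 97 genes changed by a log2 fold of 1 and 98.9% of 94 changed by 2, with 10 false calls among 7742 genes. The simulated sums were drawn independently with the same dispersion for every gene and no shared deviation of a pool. These rates thus need not hold for the real sums. Common dispersion was 0.0293 in the neuron fit. The same-numbered sums of 2 labels come from the same pool of animals. Their deviations correlated at 0.0309 to 0.476 over 36 pairs of labels, over 0.1 in 30, and the library as a block was an alternative. Named members passed a test or were described by label. At most 6 partners per comparison were named, those with the lowest adjusted p, and 1 of these is not reported here. Figures were drawn with matplotlib 3.10.9. DESeq2 1.42.0, RLE factors, other filters, subtraction of free RNA (10% of each sum, from barcodes with at most 10 UMIs), depth and label subsets and each library alone were tried.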

Additional observations from a re-analysis of the deposited data

Results flagged for a closer look

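Gabra5, a GABA-A alpha subunit that was rare in these nuclei, was the only called member whose direction differed between the libraries. Its log2 difference between Micro-PVM and the mean of the neuron labels was 0.18 in the male library alone and -1.43 in the female library alone. Its levels in Micro-PVM were 4.81 (male) and 1.99 (female) CPM, and 4 of the 9 male neuron sums had fewer than 3 UMIs of it. The difference between the libraries was not tested, and with 1 pool of animals per sex, sex and depth cannot be told apart.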

How the results depend on the processing

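In 9 of the 10 comparisons each library alone gave every called member the sign of the fit of both, and in Micro-PVM 27 to 28 of 28 members. The calls came from both libraries together, so the selection favoured this agreement and it is no separate check. Sizes were less stable, as 21 of 151 called differences moved by over 1.5 times in fold with 1 library alone and 43 after subtraction of free RNA. Gabra5 in Micro-PVM was -1.43 (log2) without the male library and turned to 0.18 without the female library. Under the other alternatives counts of called members stayed within 1.5 times of those given, except in 3 comparisons. For L5 PT against L2/3 IT, 9 became 14 with the library as a replicate block. For L4/5 IT against L2/3 IT, 6 became 15 with the block, 11 with no filter on low counts, 3 in nuclei with at least 2300 UMIs, and 10 without the L2/3 IT CTX-2 label, an alternative chosen after seeing the data. For Atf3 status, 7 became 0 in edgeR without the replicate block (5 at an unadjusted p under 0.05) and 0 after thinning to 2300 UMIs (9 at an unadjusted p under 0.05, with 9 pairs of sums of 17), and 10 with DESeq2, with no filter or with at least 10 CPM in 2 sums. The cause of these changes was not tested. Of 151 calls of a member in a comparison, 123 passed under every alternative with a test, and the other 28 lost the call under at least 1 without turning direction. The block changed no other comparison's count by over 1.5 times (Pvalb against Sst went from 12 to 18). After subtraction of free RNA, 30 of 31 members kept their highest label. Depth limits members with few UMIs, above all in Vip, L6 CT and Astro.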

Other observations

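Labels with too few nuclei for the comparisons are given here as values only. Lamp5 interneurons (15 male, 12 female nuclei) had 3162 and 3552 CPM of Gabrg3, 2330 and 712 CPM of Grik1, and 0 and 17.0 CPM of Grik3. L5 IT neurons (15 and 20 nuclei) had 347 and 253 CPM of Gria4, beside 20.8 and 17.4 CPM in L5 PT, and 309 and 292 CPM of Grik3. Oligodendrocytes (26 and 42 nuclei) had 1165 and 1205 CPM of Grik2, 777 and 1037 CPM of Grm3 and 888 and 2079 CPM of Grm7. Nuclei labelled VLMC (vascular leptomeningeal cells, 113 and 161 nuclei) had 372 and 96.5 CPM of Grm8 and 240 and 308 CPM of Gria3. SMC-Peri (smooth muscle cells and pericytes, 92 and 41 nuclei) had 394 and 117 CPM of Grm8 and 363 and 247 CPM of Gabrb1. No test was run on these labels.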
